A study of Mus musculus with 6 samples.

Results

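The 46 genes described here encode scaffolds, adhesion molecules and signalling proteins of the postsynaptic side of neuronal synapses. They were chosen by symbol, and all 46 were found among the 24421 gene symbols of the count table. All 46 also passed the filter on low counts and were among the 14852 genes tested. Expression was measured by bulk RNA sequencing of cortex from C57BL/6 mice with an experimental ischaemic stroke, made by blocking the middle cerebral artery (MCAO). The 3 control samples came from MCAO mice given green fluorescent protein (GFP). The other 3 came from MCAO mice given NeuroD1, a proneural transcription factor, which the series title describes as a gene therapy given intravenously. Both groups had the stroke, so the comparison has no uninjured animals. The sources used here do not give the vector, its promoter and target cells, the time after stroke, or the age and sex of the mice. Nor do they state that the samples are different animals, so each p-value reflects only the scatter of these libraries, part of which may be technical. An exact permutation test of 3 against 3 libraries cannot give a p below 0.1, so p-values come from a model fitted across all genes.

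At an excitatory synapse, glutamate receptors are held opposite the release site by a dense protein mesh. Membrane-associated guanylate kinases bind the receptors, SAPAP proteins link those kinases to Shank, and Shank and Homer connect the mesh to the actin skeleton of the spine. Calcium entering through the receptors activates calcium/calmodulin-dependent kinase II (CaMKII), which alters receptor number and spine shape during plasticity. Most of these transcripts in cortex come from neurons, so in bulk tissue fewer neurons and less RNA per neuron cannot be told apart.

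Library totals were 7753101 to 9698795 counts with GFP and 10843273 to 13440244 with NeuroD1. The ribosomal RNA gene Rn45s took up 7.25% of counts in GFP replicate 2, the smallest library, and 0.22% to 1.22% in the others. The delivered gene, Neurod1, lay between 3.87 and 6.48 CPM in the GFP libraries and between 14.6 and 48.5 CPM in the NeuroD1 libraries, where CPM is the count relative to library size after TMM scaling for composition. Neurod1 was lowest of its group in NeuroD1 replicate 2, which is also the library in which the 46 members were lowest. The members together took up 1.23% and 1.67% of all counts in NeuroD1 replicates 1 and 3, but 0.697% in NeuroD1 replicate 2, against 1.25% to 1.98% in the GFP libraries.

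The postsynaptic genes had no common direction with NeuroD1. Their median log2 fold change (NeuroD1 over GFP) was -0.05, beside 0.02 over all tested genes, with 25 members at lower and 21 at higher fitted levels. After Benjamini-Hochberg adjustment over all genes, edgeR's quasi-likelihood test called 0 members and 0% of all tested genes, and the smallest adjusted p among the members was 0.145. Before adjustment, 5 members (10.9%) had an edgeR p under 0.05, while 24% of all tested genes passed that criterion. The 3 lower were Begain, Camk2n1 and Nrgn, against 11.5% of all genes in that direction, and the 2 higher were Nptxr and Nptx2, against 12.5%. With upper quartile scaling the split was 3 lower and 1 higher, and with libraries scaled to pan-neuronal markers it was 0 lower and 2 higher. Under that pan-neuronal scaling the log2 fold changes of Camk2n1, Nrgn and Begain were -0.82 (SE 0.49), -0.86 (SE 0.51) and -0.76 (SE 0.52), close to the -0.96, -0.93 and -0.89 of the TMM fit but with larger errors, and the share of all genes at an unadjusted p under 0.05 was 10.8%. limma-voom called 0 members and 0% of genes after adjustment. DESeq2 called 1 member, Nptxr (adjusted p = 0.0386), beside 8.91% of the genes it tested.

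**Figure D1:**
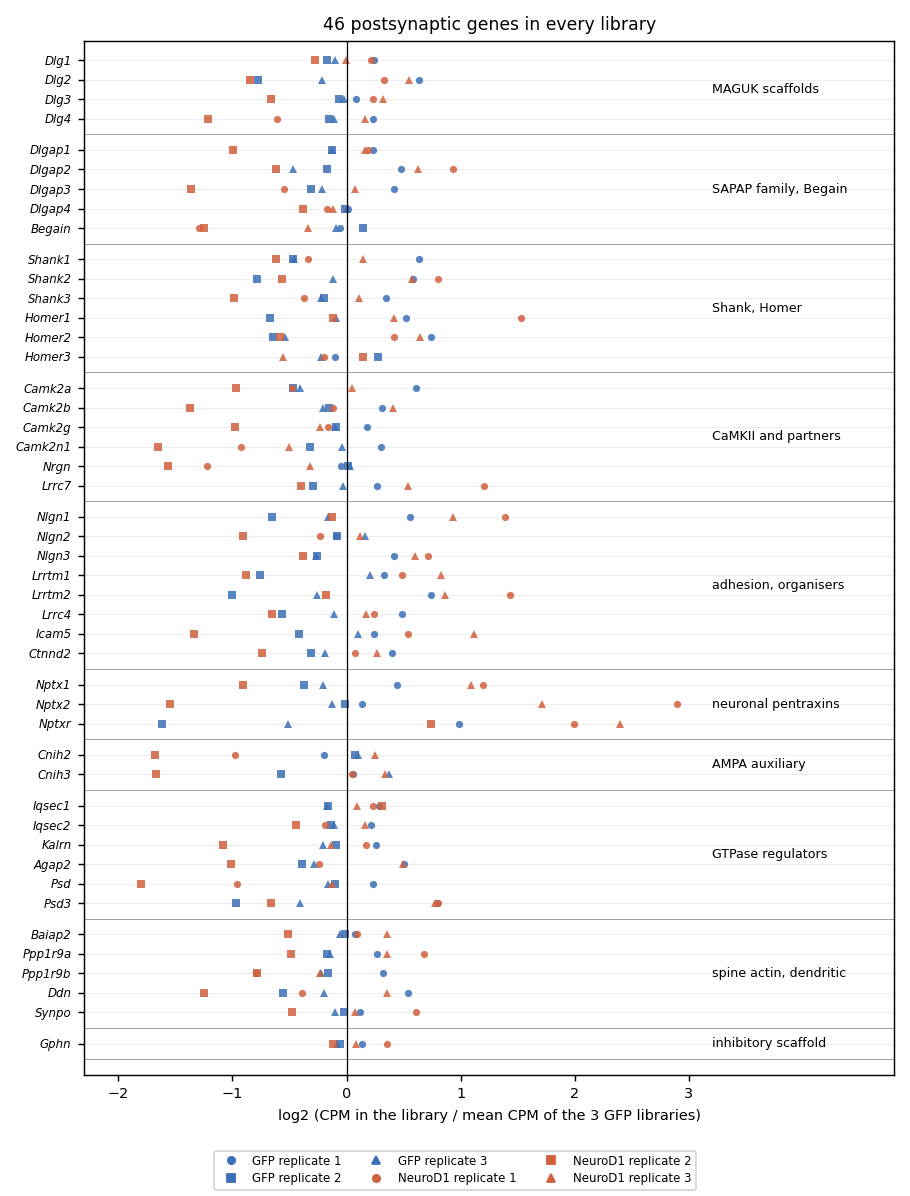
Level of each of the 46 members in every library, as log2 of its CPM over the mean CPM of the 3 GFP libraries. Blue marks are GFP and orange marks NeuroD1 libraries, and circle, square and triangle are replicates 1, 2 and 3. NeuroD1 replicate 2 is the lowest of the 6 libraries for 35 members.

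The groups of libraries did not overlap in 6 members (13%), against 29.6% of all tested genes. All 6 were lower with NeuroD1, a direction in which 15.3% of all genes did not overlap. They were Begain, Camk2n1, Nrgn, Ppp1r9b, Camk2g and Dlgap4. In all other members the groups overlapped. NeuroD1 replicate 2 was the lowest of the 6 libraries for 35 members (76.1%), against 22.4% of all tested genes. GFP replicate 1 was the highest for 20 members (43.5%), against 10.9% of all genes.

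**Figure D2:**
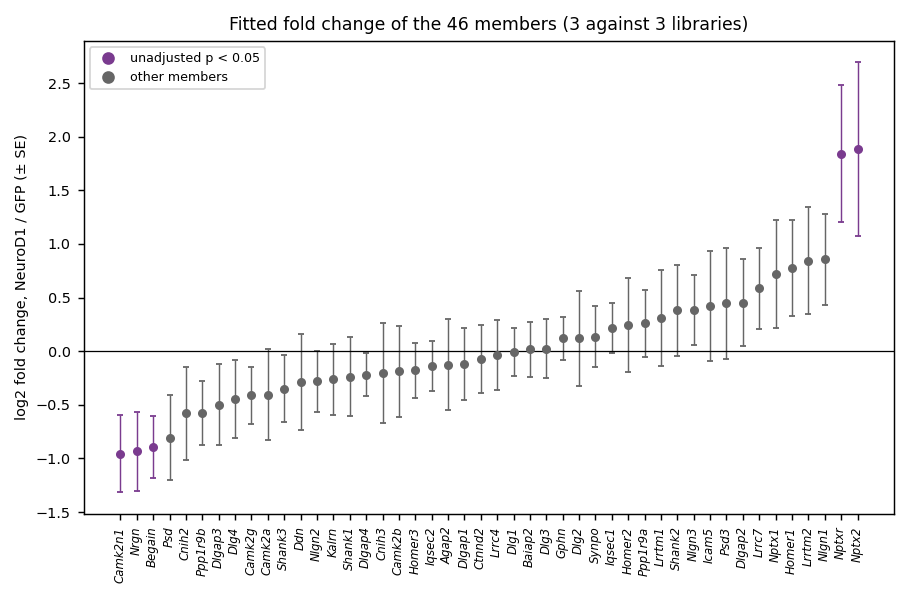
Fitted log2 fold change of each member, NeuroD1 over GFP, with its standard error (3 against 3 libraries), ordered by value. Purple marks the 5 members with an unadjusted edgeR p under 0.05, and 0 members passed after adjustment over all genes.

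Among the membrane-associated guanylate kinases, Dlg4 had the lowest fold change and the other members were close to 0. Dlg4 encodes the postsynaptic density protein that anchors NMDA receptors, and it measured 731, 561 and 577 CPM in GFP replicates 1, 2 and 3. In the NeuroD1 replicates it measured 408, 268 and 698 CPM. NeuroD1 replicate 3 thus lay within the GFP range and the other NeuroD1 libraries below it, with a log2 fold change of -0.44 (SE 0.36; edgeR adjusted p = 0.458). Without NeuroD1 replicate 3 the log2 fold change of Dlg4 was -0.88, which passed an unadjusted p of 0.05, and without NeuroD1 replicate 2 it was -0.17. Dlg1, Dlg2 and Dlg3 had log2 fold changes of -0.01 (SE 0.22), 0.12 (SE 0.44) and 0.02 (SE 0.27).

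Of the SAPAP family and Begain, which bind these kinases, Begain had the smallest p of all 46 members. Begain (chromosome 12, 109032187 to 109068217, minus strand, GRCm38) encodes a brain protein that binds the guanylate kinase domain of the Dlg4 product. It measured 138, 159 and 134 CPM in the GFP libraries and 58.6, 60.3 and 114 CPM in the NeuroD1 libraries. Every NeuroD1 library lay below every GFP library, and NeuroD1 replicate 3 lay nearest to the GFP range. The means were 144 ± 13.3 with GFP and 77.5 ± 31.2 with NeuroD1 (SD, 3 libraries each), a 1.85-fold lower fitted level (log2 fold change -0.89, SE 0.29; edgeR adjusted p = 0.145). Its unadjusted p was above 0.05 without NeuroD1 replicate 1 and below it without any 1 of the other libraries. Among the SAPAP genes, the groups were apart in Dlgap4 alone, by little. It held 260 to 266 CPM with GFP and 203 to 243 CPM with NeuroD1, at a log2 fold change of only -0.22 (SE 0.20). Dlgap3 and Dlgap1 had log2 fold changes of -0.50 (SE 0.38) and -0.12 (SE 0.33), and Dlgap2, the scarcest of the 4 per length of exon, had 0.45 (SE 0.41). The log2 fold change of Dlgap3 was -0.89 without NeuroD1 replicate 3 and that of Dlgap2 was 0.79 without NeuroD1 replicate 2, both past the unadjusted threshold of 0.05.

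The Shank and Homer genes gave no member with an unadjusted p under 0.05. Shank3, whose loss impairs excitatory synapses in mice, measured 238, 163 and 160 CPM with GFP and 144, 94.3 and 201 CPM with NeuroD1. The groups overlapped, and the log2 fold change was -0.35 (SE 0.31). Homer1 links metabotropic glutamate receptors to Shank and also yields a short form induced by activity, and counts per gene do not separate these forms. It measured 49.5, 21.6 and 32.5 CPM with GFP and 99.9, 31.8 and 46.05 CPM with NeuroD1. The high mean with NeuroD1 came mainly from replicate 1: the log2 fold change was 0.78 (SE 0.45; edgeR adjusted p = 0.311) with all libraries and 0.18 without that replicate. Without NeuroD1 replicate 2 it was 1.08, past the unadjusted threshold of 0.05. Shank1, Shank2, Homer2 and Homer3 lay between -0.24 and 0.38. Homer3 shares 25.4% of its exon length with Ddx49 on the opposite strand, so its level is uncertain.

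Of the 6 genes for CaMKII subunits and their partners, 5 had lower values and 3 of these had groups without overlap. Camk2a, the main CaMKII subunit of forebrain neurons, had the most counts of any member. It measured 3928, 1868 and 1947 CPM with GFP and 1851, 1320 and 2669 CPM with NeuroD1. GFP replicate 1 was far above the rest, and without it the log2 fold change moved from -0.41 (SE 0.42) to 0.01. Camk2b, the other abundant subunit, had -0.19 (SE 0.42). Camk2g, a subunit also made outside neurons, measured 264, 218 and 217 CPM with GFP and 209, 119 and 198 CPM with NeuroD1. These groups did not overlap, though NeuroD1 replicates 1 and 3 were close to the lower GFP libraries (log2 fold change -0.41, SE 0.27; edgeR adjusted p = 0.355).

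Camk2n1 and Nrgn, which restrain this kinase and hold its activator, were the abundant members with the lowest fold changes. Camk2n1 (chromosome 4, 138454314 to 138460123, plus strand) encodes a small inhibitor protein that binds active CaMKII. It measured 1853, 1201 and 1458 CPM with GFP and 790, 477 and 1060 CPM with NeuroD1. All NeuroD1 libraries were below all GFP libraries, with means of 776 ± 292 and 1504 ± 328 CPM (SD) and a 1.94-fold lower fitted level (log2 fold change -0.96, SE 0.36; edgeR adjusted p = 0.172). Nrgn (chromosome 9, 37544492 to 37552904, minus strand) encodes neurogranin, which binds calmodulin at low calcium in dendrites. It measured 1927, 2010 and 2040 CPM with GFP, a spread of 58.2 CPM (SD), and 853, 675 and 1599 CPM with NeuroD1. NeuroD1 replicate 3 stood well above the other NeuroD1 libraries but still below the GFP range (log2 fold change -0.93, SE 0.37, 1.91-fold lower; edgeR adjusted p = 0.184). Without NeuroD1 replicate 3 the log2 fold change of Nrgn was -1.38, and without any 1 of the other libraries its unadjusted p was above 0.05. For Camk2n1 the unadjusted p stayed below 0.05 without NeuroD1 replicate 3 or GFP replicate 2, and not without any 1 of the others. Lrrc7 encodes densin, a scaffold that binds CaMKII, and went the other way in NeuroD1 replicates 1 and 3. It measured 26.1, 17.8 and 21.3 CPM with GFP and 49.9, 16.5 and 31.5 CPM with NeuroD1. The groups overlapped through replicate 2 (log2 fold change 0.59, SE 0.38; 0.91 without NeuroD1 replicate 2, past the unadjusted threshold of 0.05, and 0.15 without NeuroD1 replicate 1).

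NeuroD1 binds E-boxes, short DNA motifs of the form CANNTG, so the promoters of Nrgn and Begain are shown with such letters in capitals. They are the members at an unadjusted p under 0.05 whose promoter is in the RefSeq table (GRCm38.p6), which held 52 windows for 32 members. Each window runs from 250 bases before to 50 after a transcript start, and for Begain the most upstream of 5 windows is given. The Nrgn window is chr9:37552696-37552995 and the Begain window chr12:109068193-109068492, both on the minus strand.

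Nrgn: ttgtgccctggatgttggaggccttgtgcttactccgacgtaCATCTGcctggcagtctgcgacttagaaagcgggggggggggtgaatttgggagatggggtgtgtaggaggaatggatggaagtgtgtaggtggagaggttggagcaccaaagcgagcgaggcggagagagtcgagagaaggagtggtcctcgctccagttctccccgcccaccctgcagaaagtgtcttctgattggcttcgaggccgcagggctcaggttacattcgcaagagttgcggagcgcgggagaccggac

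Begain: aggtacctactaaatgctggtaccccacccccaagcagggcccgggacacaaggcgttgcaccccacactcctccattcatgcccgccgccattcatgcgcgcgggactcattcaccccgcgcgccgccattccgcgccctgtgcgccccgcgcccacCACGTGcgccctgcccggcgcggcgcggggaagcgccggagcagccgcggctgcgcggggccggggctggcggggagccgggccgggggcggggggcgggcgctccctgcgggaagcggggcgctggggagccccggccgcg

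Each of these windows holds 1 match to CANNTG. In Nrgn it is CATCTG, the opposite-strand reading of CAGATG, an E-box form that NeuroD1 is known to bind. CAGATG, read on both strands, occurs in 6 of the 52 member windows (11.5%), 12% of windows of tested genes and 17.2% of all RefSeq windows. CAGCTG, which reads the same on both strands, occurs in 21.2%, 16% and 16.3% of these windows. CANNTG, which includes both, occurs in 63.5% of the member windows and 64.6% of the windows of tested genes. These are matches of letters, and binding was not measured.

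Among the adhesion molecules and synapse organisers, the scarcest members tended to higher values. Nlgn1, a neuroligin of excitatory synapses that binds presynaptic neurexins, measured 28.8, 12.4 and 17.5 CPM with GFP and 51.1, 17.9 and 37.4 CPM with NeuroD1. NeuroD1 replicates 1 and 3 were above all GFP libraries and replicate 2 was not (log2 fold change 0.86, SE 0.42; edgeR adjusted p = 0.251). Without NeuroD1 replicate 2 the log2 fold change of Nlgn1 was 1.18 and without GFP replicate 1 it was 1.23, both past the unadjusted threshold of 0.05, and without NeuroD1 replicate 1 it was 0.50. Lrrtm2, another neurexin-binding protein, had the same order of libraries. It measured 37.9, 11.4 and 19.0 CPM with GFP and 61.5, 20.0 and 41.4 CPM with NeuroD1 (log2 fold change 0.84, SE 0.50; edgeR adjusted p = 0.320). Leaving out GFP replicate 1 gave 1.41 for Lrrtm2, and leaving out NeuroD1 replicate 2 gave 1.17, both past the unadjusted threshold of 0.05, and 0.43 without NeuroD1 replicate 1. Nlgn3 had 0.38 (SE 0.32), whereas Nlgn2, the neuroligin of inhibitory synapses, had -0.28 (SE 0.29). Icam5, an adhesion molecule of forebrain dendrites, ranged most widely with NeuroD1. It measured 128, 80.8 and 116 CPM with GFP against 158, 42.9 and 234 CPM with NeuroD1, so the NeuroD1 libraries lay on both sides of the GFP range (log2 fold change 0.42, SE 0.52). Lrrtm1, Lrrc4 and Ctnnd2 had log2 fold changes of 0.31, -0.03 and -0.07 with overlapping groups. For Icam5 and Nlgn3, 26.8% and 41.2% of the exon length are shared with a gene annotated on the opposite and the same strand, and their levels are uncertain.

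**Figure D3:**
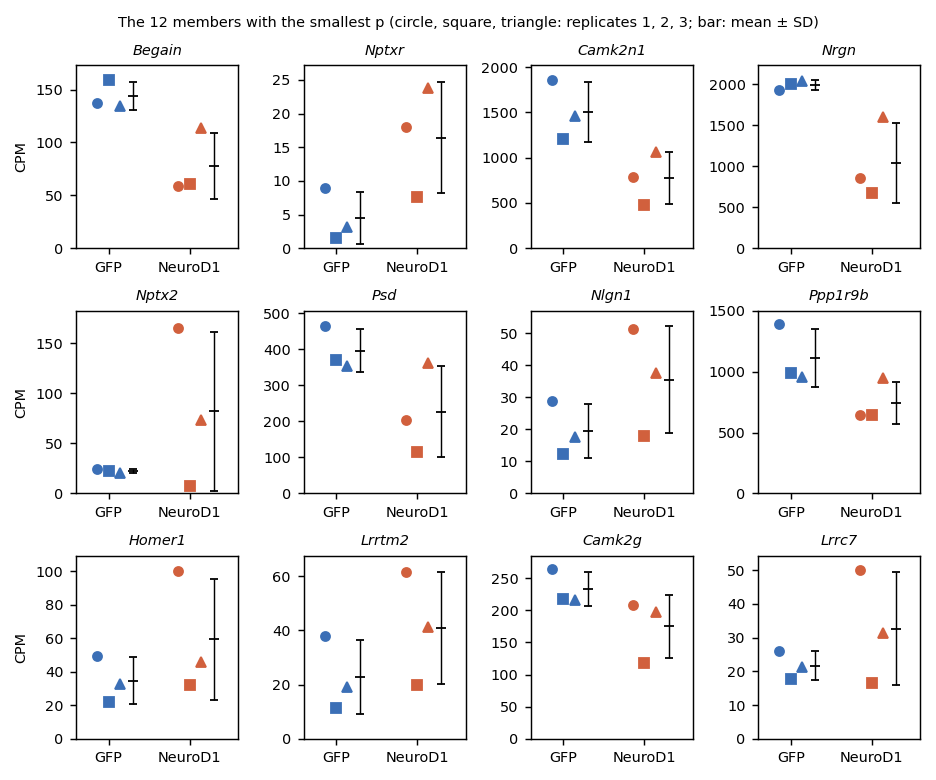
CPM in every library for the 12 members with the smallest edgeR p, with blue GFP and orange NeuroD1 marks, circle, square and triangle for replicates 1, 2 and 3, and a black mean ± SD beside each group. Begain, Camk2n1, Nrgn, Ppp1r9b and Camk2g do not overlap, while Nptx2 has NeuroD1 libraries above and below the GFP range.

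Of the neuronal pentraxins, which gather AMPA receptors at synapses, Nptx2 and Nptxr had the highest fold changes of the 46 genes. Nptx2 (chromosome 5, 144545902 to 144557478, plus strand) encodes a secreted pentraxin whose gene is induced by neuronal activity. It was nearly constant with GFP, at 24.4, 22.0 and 20.4 CPM, and measured 166, 7.64 and 73.0 CPM with NeuroD1. NeuroD1 replicates 1 and 3 were above every GFP library and replicate 2 was below every one. The log2 fold change was 1.88 (SE 0.81, 3.69-fold higher; edgeR adjusted p = 0.203). It was 0.86 without NeuroD1 replicate 1 (1.82-fold) and 2.43 without NeuroD1 replicate 2 (5.38-fold), and only the latter of the 6 fits that leave out 1 library had an unadjusted p below 0.05. Nptxr (chromosome 15, 79786351 to 79804766, minus strand) encodes the membrane-bound pentraxin. It measured 8.91, 1.47 and 3.15 CPM with GFP and 17.9, 7.55 and 23.8 CPM with NeuroD1. Of the NeuroD1 libraries, only replicate 2 lay within the GFP range, below GFP replicate 1 (log2 fold change 1.84, SE 0.64, 3.59-fold higher; edgeR adjusted p = 0.156). The fold was 6.91 without GFP replicate 1, and the unadjusted p was above 0.05 without GFP replicate 3 or NeuroD1 replicate 3. Nptxr had only 11 to 88 counts in the GFP libraries. It shares 17.2% of its exon length with the readthrough gene Npcd on the same strand, which was listed at 0 in all 6 libraries, so reads there may have gone uncounted and the level is uncertain. Nptx1, the other secreted pentraxin, measured 291, 165 and 185 CPM with GFP and 489, 114 and 454 CPM with NeuroD1. It repeated the split of Nptx2, with replicate 2 below and replicates 1 and 3 above all GFP libraries (log2 fold change 0.72, SE 0.50; 1.15 without NeuroD1 replicate 2, past the unadjusted threshold of 0.05).

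The cornichon proteins, auxiliary subunits that slow the closing of AMPA receptors, had lower fitted values with wide errors. Cnih2 measured 120, 145 and 148 CPM with GFP and 70.0, 43.0 and 163 CPM with NeuroD1. NeuroD1 replicate 3 was above all GFP libraries and the other NeuroD1 libraries were below them (log2 fold change -0.58, SE 0.43; edgeR adjusted p = 0.420). Without NeuroD1 replicate 3 the log2 fold change of Cnih2 was -1.28, past the unadjusted threshold of 0.05. Cnih3 had -0.20 (SE 0.47).

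Of the 6 regulators of small GTPases, which steer receptor traffic and spine actin, Psd had the lowest fold change. Psd encodes an exchange factor for ARF-family GTPases, and it measured 464, 370 and 354 CPM with GFP and 203, 114 and 363 CPM with NeuroD1. NeuroD1 replicate 3 lay inside the GFP range (log2 fold change -0.81, SE 0.40; edgeR adjusted p = 0.248). Without NeuroD1 replicate 3 it was -1.32, past the unadjusted threshold of 0.05, and without NeuroD1 replicate 2 it was -0.48. Its relative Psd3 had 0.45 (SE 0.52). The other ARF regulators Iqsec1, Iqsec2 and Agap2 and the exchange factor Kalrn lay between -0.26 and 0.21. Iqsec1 was the only member at its highest in NeuroD1 replicate 2, at 342 CPM against 245 to 336 CPM with GFP.

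Among the spine actin and dendritic proteins, Ppp1r9b had the lowest fold change. It encodes spinophilin, which ties a protein phosphatase to spine actin, and measured 1389, 993 and 954 CPM with GFP and 643, 643 and 947 CPM with NeuroD1. The groups did not overlap, but NeuroD1 replicate 3 was close to the lowest GFP library (log2 fold change -0.58, SE 0.30; edgeR adjusted p = 0.264). The related Ppp1r9a had 0.26 (SE 0.31), and Ddn, Synpo and Baiap2 lay between -0.29 and 0.14. Gphn, the gephyrin scaffold of inhibitory synapses, had similar values in both groups. It measured 42.5, 37.3 and 36.7 CPM with GFP and 49.6, 35.7 and 41.2 CPM with NeuroD1 (log2 fold change 0.12, SE 0.20; -0.01 without NeuroD1 replicate 1).

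The low values of NeuroD1 replicate 2 were shared with general neuronal genes and astrocyte markers and came with high scar and immune markers. The 12 pan-neuronal markers summed to 1477 CPM in that library, to 3005 and 4228 CPM in NeuroD1 replicates 1 and 3, and to 2383 to 3613 CPM with GFP. The 10 markers of excitatory cortical neurons summed to 572 CPM there, 1671 and 2339 CPM in the other NeuroD1 libraries and 1131 to 1758 CPM with GFP. For the 8 astrocyte markers the sum was 5562 CPM in NeuroD1 replicate 2, 9327 and 10223 CPM in NeuroD1 replicates 1 and 3, and 9482 to 15639 CPM with GFP. The same library had the highest sums of 8 fibroblast and scar markers (7158 CPM, against 1852 and 4235 CPM in the other NeuroD1 libraries and 1075 to 1884 CPM with GFP) and of 8 microglia and macrophage markers (4663 CPM, against 2137 to 3257 CPM elsewhere). All 8 scar markers were higher and 3 of 8 immune markers were higher at an unadjusted edgeR p under 0.05, and 3 of 8 astrocyte markers, 3 of 8 oligodendrocyte markers and 6 of 8 endothelial markers were lower. Over all tested genes, 12.5% were higher and 11.5% lower at that threshold. Of the listed markers of these cell types, 0 were at 0 in all libraries. In the neuronal lists the genes with the smallest p went both ways: Elavl3 (log2 fold change -0.65, SE 0.25) and Elavl4 (0.55, SE 0.40) of the pan-neuronal list, Fezf2 (-0.85, SE 0.33) and Neurod2 (-0.73, SE 0.33) of the excitatory list, and Gad2 (0.92, SE 0.36) and Pvalb (-0.66, SE 0.28) of the inhibitory list.

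The hippocampal marker sum was high in NeuroD1 replicates 1 and 3 and the striatal sum in replicate 3, each mainly through 1 gene. Nptx2, Nptx1, Nlgn1 and Lrrtm2 were also high in NeuroD1 replicates 1 and 3. Of 6 listed hippocampal markers only 3 passed the filter on low counts, and these include the delivered Neurod1. The 3 summed to 255 and 420 CPM in NeuroD1 replicates 1 and 3, to 89.3 CPM in NeuroD1 replicate 2 and to 65.2 to 118 CPM with GFP. Most of that sum was Wfs1, at 105, 51.8 and 83.6 CPM with GFP and 194, 60.8 and 375 CPM with NeuroD1 (log2 fold change 1.39, SE 0.57; edgeR adjusted p = 0.192). The 8 striatal markers summed to 362 CPM in NeuroD1 replicate 3, to 216 and 127 CPM in NeuroD1 replicates 1 and 2, and to 165 to 228 CPM with GFP. By fitted value 5 of the 8 were higher and 3 lower. Penk measured 14.8, 18.4 and 27.4 CPM with GFP and 17.6, 30.9 and 151 CPM with NeuroD1, so its rise was in replicate 3. Its log2 fold change was 1.71 (SE 0.72), and 0.27 without NeuroD1 replicate 3. Drd2, with 5 to 27 counts per library, had 0.79 (SE 0.50).

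Among the glial, scar and vascular lists, the genes with the smallest p were lower for astrocytes (S100b -1.10 and Aldoc -1.21, log2), oligodendrocytes (Mobp -1.23 and Mog -0.68) and endothelium (Tek -1.46 and Esam -1.34). They were higher for immune cells (Ptprc 1.15 and Itgam 0.72) and scar (Pdgfra 1.157 and Lum 2.02). The part of these other cell types and regions in the members' values was not tested.

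**Figure D4:**
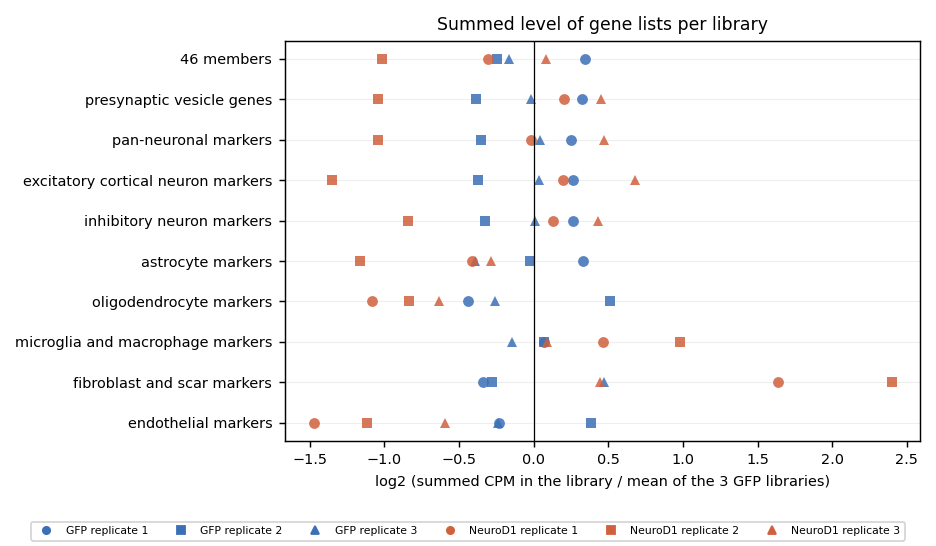
Summed CPM of the 46 members and of marker lists in each library, as log2 over the mean of the 3 GFP libraries, with blue GFP and orange NeuroD1 marks and circle, square and triangle for replicates 1, 2 and 3. NeuroD1 replicate 2 has the lowest sums of the members and of the presynaptic, pan-neuronal, excitatory and inhibitory neuron and astrocyte lists plotted and the highest scar and immune sums.

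The direction of the median member depended on single libraries. It was 0.13 without GFP replicate 1. Without NeuroD1 replicate 2 the median log2 fold change of the members was 0.18, and 12 members (26.1%) had an unadjusted edgeR p under 0.05, beside 24.1% of all genes. Of these 12, 11 were higher, beside 12.2% of all genes higher in that fit: the 3 pentraxins, Nlgn1, Nlgn3, Lrrtm2, Lrrc7, Icam5, Homer1, Dlgap2 and Ppp1r9a. Begain was the 1 lower member. Without NeuroD1 replicate 3 the median was -0.16 and 8 members (17.4%) passed that threshold, beside 29% of all genes. All 8 were lower, beside 13.6% of all genes lower in that fit. These were Begain, Nrgn, Cnih2, Psd, Camk2n1, Dlg4, Ppp1r9b and Dlgap3. After adjustment over all genes 0 members passed in either fit. For 28 of the 46 members the sign of the fold change was the same whichever library was left out.

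The level of each member was also set against the summed pan-neuronal markers of its own library, as CPM per 100 CPM of markers. On this scale the groups did not overlap in 7 members (15.2%), beside 8.64% of all tested genes, whose share in CPM was 29.6%. The marker sum itself ran from 1477 to 4228 CPM with NeuroD1, so dividing by it spreads genes that do not follow it. The 2 shares are therefore not a like comparison, and the higher share of the members does not single them out. Nrgn stood at 53.3, 84.3 and 65.0 per 100 with GFP and 28.4, 45.7 and 37.8 with NeuroD1. Camk2n1 stood at 51.3, 50.4 and 46.5 with GFP and 26.3, 32.3 and 25.1 with NeuroD1, so its groups were further apart relative to their spread than in CPM. Psd, Dlgap3 and Dlg4 were also lower in every NeuroD1 library on this scale, though not in CPM, and Nlgn1 and Nptxr were higher in every one. Begain overlapped here, since NeuroD1 replicate 2 (4.08) lay above GFP replicate 1 (3.81). Ppp1r9b, Camk2g and Dlgap4, whose groups were apart in CPM, overlapped here as well. For Ppp1r9b (43.5) and Dlgap4 (13.7), NeuroD1 replicate 2 lay above every GFP library.

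Per length of exon, Nrgn was the most abundant member at 1044 CPM per kb over the 6 libraries. Camk2a (303), Camk2n1 (256), Ppp1r9b (183) and Ddn (162) followed, and Lrrc7 (2.77), Homer2 (2.48), Nlgn1 (2.05) and Nptxr (2.02) were the scarcest. Abundant members tended to lower fold changes and scarce ones to higher. Of the 23 more abundant members 18 had lower values (median log2 fold change -0.28), and of the 23 scarcer ones 16 had higher values (median 0.25). The Spearman correlation between level per kb and log2 fold change was -0.69 across the 46 members and -0.01 across 14327 tested genes with a length. It was -0.47 across 40 other postsynaptic genes and -0.45 across 16 presynaptic vesicle genes, so a negative value per kb was also seen on the presynaptic side. With level as CPM, not divided by length, the correlation was -0.63 across the members. It was then -0.38 across the other postsynaptic genes and -0.16 across the presynaptic genes. Level and fold change come from the same 6 libraries, and genes are not independent replicates, so this is a description. Fold changes also went with the GC content of the transcript, with a correlation of -0.47 across the members and -0.29 across tested genes. With offsets for transcript length and GC the correlation with level per kb was -0.55 across the members. Under these offsets the log2 fold change of Nrgn was -0.57, no longer past the unadjusted threshold of 0.05, and that of Begain was -0.64, still past it.

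**Figure D5:**
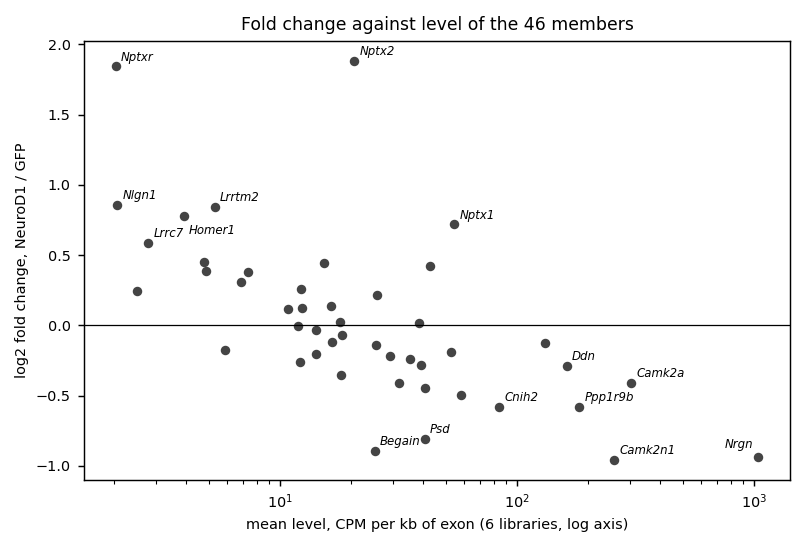
Log2 fold change of the 46 members, NeuroD1 over GFP, against their mean level over the 6 libraries in CPM per kb of exon on a log axis. Nrgn and Camk2n1 lie at the abundant, lower end, Nlgn1 and Nptxr at the scarce, higher end, and Nptx2 and Nptx1 above the other members of like level.

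In other lists of synaptic genes, too, few genes passed the unadjusted threshold, which 24% of all tested genes passed. Of 40 further excitatory postsynaptic genes, 0 were higher and 1 was lower at an unadjusted edgeR p under 0.05, with a median log2 fold change of 0.18. The lower gene was Arc, an activity-induced regulator of AMPA receptor uptake, at 86.1, 62.2 and 50.4 CPM with GFP and 56.2, 27.1 and 31.1 CPM with NeuroD1 (log2 fold change -0.79, SE 0.32; edgeR adjusted p = 0.189). Among 10 tested genes of inhibitory synapses, which include the members Nlgn2 and Gphn, 0 passed in either direction. Among 16 presynaptic vesicle genes 0 passed, with Sv2b (log2 fold change 0.95, SE 0.58) and Stx1a (-0.55, SE 0.38) nearest. Of 11 presynaptic partners of the adhesion molecules, 1 was higher, Cbln1, which bridges neurexins to postsynaptic receptors, with means of 4.68 ± 1.99 CPM for GFP and 9.86 ± 4.16 CPM for NeuroD1 (SD), and Ptprd followed with a log2 fold change of -0.42 (SE 0.22). The 10 immediate-early genes differed from these lists, with 4 (40%) past the threshold, 1 higher and 3 lower. The lower genes were Arc again and Npas4 (log2 fold change -2.09, SE 0.58) and Nr4a1 (-1.13, SE 0.25), the last 2 activity-induced transcription factors. By fitted value 5 of the 10 were lower and 5 higher. After adjustment over all genes edgeR called 0 of the genes in these lists, whereas DESeq2 called Npas4 (adjusted p = 0.0115) and Nr4a1 (adjusted p = 0.00722), and edgeR with a replicate block called Npas4 (adjusted p = 0.0447).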

How the data were processed

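The authors deposited raw read counts per gene symbol for 6 cortex samples, and per the file headers featureCounts produced them from a gene file for mm10. The submitters' processing notes list the tools HISAT2 2.0.1 and DESeq2 1.16.1 and the build GRCm38, with no roles. No source used here gives the strand setting or the treatment of overlapping genes, so reads of genes that share exons cannot be told apart. This touches 19 of the 46 members by the GENCODE M21 annotation, and for 7 of them an overlapping gene is in the count table.

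Genes were kept by filterByExpr (minimum count 10, minimum total 15) and tested with edgeR 4.0.16 in R 4.3.3, by the quasi-likelihood F-test with TMM scaling and treatment as the only term. Benjamini-Hochberg adjustment ran over the 14852 tested genes, and 0.05 was the threshold. Standard errors come from the F statistic. DESeq2 1.42.0, limma-voom (limma 3.58.1), other scalings and filters, a replicate block and leaving out each library were alternatives. Offsets for transcript length and GC (14327 genes, natural splines) and scaling to pan-neuronal markers were added after the data were seen. The tests were checked on simulated data. No pair of libraries agreed within sampling noise (chi-square per gene 29.1 to 165). Lengths, GC and coordinates come from GENCODE M21 (GRCm38), matched by symbol.

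Named genes were Neurod1, the 12 members with the smallest p, the member with the smallest p in each role, 6 members fixed by family (Dlg4, Shank3, Homer1, Nlgn1, Camk2a, Gphn), and the 2 genes with the smallest p of each other list, except 3 genes that are not reported here. Further members are given by value to account for all 46. The members and lists were chosen with earlier results of these data known.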

Additional observations from a re-analysis of the deposited data

How the results depend on the processing

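With all libraries, 3 members were lower and 2 higher at an unadjusted p under 0.05, and 0 were called after adjustment. The lower count was 0 with libraries scaled to pan-neuronal markers, where Camk2n1 (-0.82), Nrgn (-0.86) and Begain (-0.76) kept their direction and 10.8% of all genes passed instead of 24%, and the higher count was 1 with upper quartile scaling, the stricter filter, DESeq2 or limma-voom. That pan-neuronal scaling moved the median of all genes to 0.32 and of the members to 0.15 (log2). DESeq2 called 1 member, Nptxr. Leaving out 1 library took the lower count to between 0 and 8 and the higher count to between 0 and 11, with the member median between -0.16 and 0.18. The log2 fold change of Camk2a ran from -0.70 to 0.011 (without GFP replicate 1) and that of Gphn from -0.0088 (without NeuroD1 replicate 1) to 0.23 over these fits. With a replicate block the higher count was 4 (Homer1, Nlgn1, Lrrtm2 and Nptxr) and the lower count was 4. Together these were 17.4% of members, beside 33.8% of all genes in either direction. After adjustment 0 members but 479 genes were called in that fit. Samples of the same number share only that number: their deviations from the group means correlated at 0.54, 0.37 and 0.04 across genes for replicates 1, 2 and 3, and GFP replicate 3 correlated best with NeuroD1 replicate 2 (0.13). Depth limits Nptxr most, with 11 counts in GFP replicate 2.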
